A study of Mus musculus with 14 samples.

Results

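Gas5, Snhg1, Snhg3, Snhg5, Snhg6, Snhg8, Snhg12, Snhg15, Epb41l4aos and Zfas1 are noncoding host transcripts of small nucleolar RNAs (snoRNAs), and their levels were followed here in mouse embryonic stem (ES) cells that were driven towards dormancy by inhibition of the kinase mTOR. The members were chosen by gene name, as hosts whose stability is known to depend on translation. They were 10 of the 54446 gene identifiers in the expression tables, and all 10 were among the 18232 genes that passed the filter on low values. The cells were E14 ES cells, grown in serum with LIF and without feeders, and were either wild type or Tet1/2 DKO, a line made by Cas9 cutting with guides to Tet1 and Tet2 and expanded from sorted single cells. Wild-type cells were collected at 0, 24, 72 and 144 h of treatment with the mTOR inhibitor INK128 (mTORi), and DKO cells at 0, 24 and 72 h. Each of the 7 groups had 2 replicates, which gives 14 libraries, and the 0 h groups received no inhibitor. DKO cells at 144 h were not analysed here, and the knockout is represented by 1 line.

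The exons of these genes encode no known long protein, and their introns carry snoRNAs, which guide ribose methylation (box C/D class) or pseudouridylation (box H/ACA class) of ribosomal RNA and are trimmed out of the spliced introns. The spliced exons of many hosts begin with a terminal oligopyrimidine (TOP) tract, the sequence through which mTOR controls the translation of ribosomal protein mRNAs. Short reading frames in the exons are translated, and the early stop codons expose the transcript to nonsense-mediated decay (NMD). Gas5, the best studied host, was first found as a transcript that accumulates in cells that stop growing.

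In GENCODE vM21, whose assembly is that of the mm10 files, the 10 genes were typed as processed transcript or lincRNA, spanned 853 to 5673 bp and contained 34 snoRNA entries of the files at 32 positions, each of which lay in an intron of at least 1 transcript of its host. Gas5 (chr1:161034422-161038539, plus strand) held 10 of them, Snhg1 (chr19:8723475-8726443, plus strand) 8, Snhg12 (chr4:132308623-132311024, plus strand) 5 and Zfas1 (chr2:167062934-167065862, plus strand) 3. Snhg3 (chr4:132348014-132353686, minus strand) held Snora73a and Snora73b, and Snhg5 (chr9:88521050-88522929, minus strand) held Snord50a and Snord50b. Snhg6 (chr1:9941959-9944118, minus strand), Snhg8 (chr3:123507552-123508404, minus strand), Snhg15 (chr11:6525591-6528760, minus strand) and Epb41l4aos held 1 each.

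The start sites are shown because TOP control is read from the first bases of a transcript. RefSeq starts on GRCm38.p6 were found for 8 of the 10 members, with 2 starts for Gas5, and each line gives 15 bases before the start and 15 from it, 5′ to 3′. Capitals mark the longest run of C and T that touches the 10 bases on either side of the start.
Gas5, chr1:161034586-161034615, plus strand: agggggcgggCCCgcgagctcgacagcccg
Gas5 second start, chr1:161035151-161035180, plus strand: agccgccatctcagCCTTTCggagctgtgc
Snhg1, chr19:8723472-8723501, plus strand: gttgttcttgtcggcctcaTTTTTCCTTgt
Snhg3, chr4:132353672-132353701, minus strand: tagtcgaccacgcctgaCTTCCgggcgtta
Snhg5, chr9:88522883-88522912, minus strand: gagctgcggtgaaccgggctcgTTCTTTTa
Snhg8, chr3:123508322-123508351, minus strand: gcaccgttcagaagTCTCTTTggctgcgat
Snhg12, chr4:132308663-132308692, plus strand: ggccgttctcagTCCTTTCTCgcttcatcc
Snhg15, chr11:6528746-6528775, minus strand: cgctgctgtgaccgtaaCTTTaagcacacg
Zfas1, chr2:167062919-167062948, plus strand: ttgactgcgCCCCgggcggccgcaggtctc

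The second start of Gas5 and the start of Snhg8 began with C and went on with C or T for 5 and 6 bases. A start with C followed by C or T to a length of at least 5 was found in 2.51% of the 32851 promoters of the RefSeq table and in 19.2% of the 73 starts of ribosomal protein genes. The run at Snhg12 was 9 bases long and began 3 bases before the annotated start, and 9.55% of all promoters held a run of at least 9. Snhg3 and Snhg15, with runs of 5 and 4 bases, were near the median of 4 over all promoters. An annotated start can lie a few bases from the one a cell uses, so a missing tract says only that these letters are not at this position.

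Expression was measured in rRNA-depleted total RNA of a fixed number of sorted cells, and ERCC RNAs (synthetic transcripts of known amount) were used as spike-ins. Libraries were made from a fixed mass of RNA, and the step at which the ERCC RNAs were added is not stated. The deposited values are TPM, transcript abundances per length that are scaled to sum to 1000000 in every library, and hold neither spike-in information nor read counts, so the depth behind a value is not known from them. Spike-in normalized TPM were obtained with 1 factor per library, the ratio of the study's spike-in normalized values to the deposited ones. The factors of the wild-type libraries were 2.11 in both at 0 h, 1.43 with 1.85 at 24 h, 1.65 with 1.49 at 72 h, and 1.07 with 1 at 144 h. Those of DKO cells were 2.81 with 2.38 at 0 h, 2.24 with 1.36 at 24 h, and 2.53 with 1.73 at 72 h. Each was 76 divided by a whole number between 27 and 76, to within 0.002 of that number. The values on the 2 scales thus answer different questions. Deposited TPM give the share of a host among all transcripts, and spike-in normalized TPM its level relative to the spike-ins, with the factor's own error in every gene. The latter is a level per cell only if the spike-ins were added in proportion to the number of cells.

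All 14 libraries carried the ES cell markers, with a sum of 2016 to 2629 TPM over Pou5f1, Sox2, Nanog, Zfp42 and Esrrb. The 5 fibroblast feeder markers summed to 1.28 to 17.7 TPM, almost all of it Thy1, and Col3a1 and Postn were listed at 0 in 7 libraries each. Tet2 was 96.0 to 143 TPM in wild-type and 15.9 to 22.2 TPM in DKO libraries, whereas Tet1 overlapped between the genotypes at 191 to 349 and 147 to 248 TPM. These are RNA levels per gene. The study screened its clones by PCR and checked the knockouts by western blot for TET1 and TET2.

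The hosts were abundant RNAs. Their mean over the 14 libraries placed them between the 88.3rd and the 97.9th percentile of the tested genes, from 66.8 TPM for Snhg6 to 295 TPM for Gas5. At 0 h in wild-type cells Gas5 stood at 278 and 324 TPM, Snhg3 at 216 and 294 TPM, and Snhg1 at 193 and 266 TPM, and the replicates of each overlapped those of the next. A gap followed to Snhg5 at 125 and 146 TPM, which overlapped Zfas1 at 114 and 151 TPM. Snhg6 was lowest at 53.8 and 66.4 TPM. Gas5 was ranked first in all 7 groups, but of the 9 pairs of neighbours in rank, between 3 and 8 overlapped in each group, so part of the order was not resolved. The 10 hosts together made up 1474 ± 223 TPM (SD, n = 2) at 0 h in wild-type cells and 1553 ± 40.4 TPM (SD, n = 2) at 144 h, and the ranges of the replicates overlapped.

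**Figure D1:**
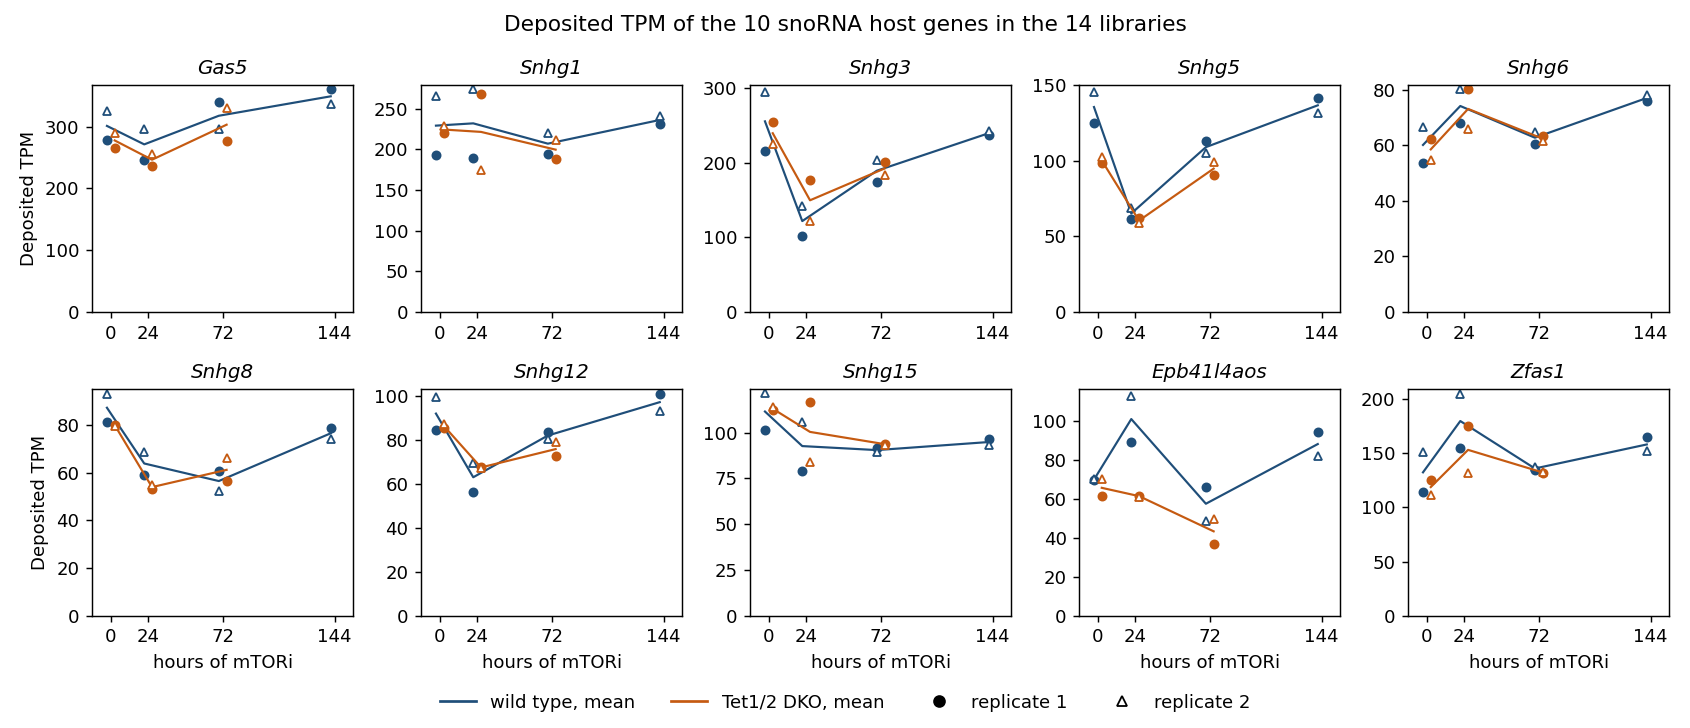
Deposited TPM of each host gene (y axes, from 0) against hours of mTORi (x axes), in wild-type (blue) and Tet1/2 DKO cells (orange), with 1 symbol per library and lines through the means of 2. Snhg3, Snhg5, Snhg8 and Snhg12 lie lower at 24 h than at 0 h in both genotypes, and Snhg6 and Zfas1 do not.

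At 24 h of mTORi Snhg3, Snhg5, Snhg8 and Snhg12 were lower than at 0 h in both genotypes. In deposited TPM these 4 hosts were called lower at 24 h in wild-type cells and the same 4 in DKO cells. The 2 comparisons share no library, but they share the estimate of the spread. Of all tested genes, 14.1% (wild type) and 13.3% (DKO) were called lower at this time (limma, adjusted p under 0.05 over all genes). On the spike-in normalized scale Snhg3 and Snhg5 were called in wild-type cells, where 8.73% of genes were called lower, and all 4 in DKO cells, where 18.7% were. The spike-in normalized calls fell to 0 in wild-type cells without replicate 2 at 0 h or replicate 1 at 24 h, and to 0 in DKO cells without replicate 1 at 0 h or replicate 2 at 24 h.

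Snhg5, the host of Snord50a and Snord50b, measured 125 and 146 TPM at 0 h and 61.8 and 68.4 TPM at 24 h in wild-type cells, and 98.1 and 102 TPM at 0 h and 62.1 and 58.7 TPM at 24 h in DKO cells. Both libraries at 24 h were below both at 0 h in each genotype, as in 31.6% of all tested genes in wild-type and 28.4% in DKO cells. The log2 fold change in deposited TPM was −1.04 ± 0.10 (SE, limma adjusted p = 8.66e-05) in wild-type and −0.72 ± 0.10 (adjusted p = 0.000696) in DKO cells, and both calls held when any 1 of the 14 libraries was left out. On the spike-in normalized scale it fell from 264 and 308 TPM to 88.6 and 127 TPM in wild-type cells, a log2 fold change of −1.42 ± 0.29 (adjusted p = 0.00501). The spike-in normalized change in DKO cells was −1.29 ± 0.29 (adjusted p = 0.0055).

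Snhg3, the host of the H/ACA snoRNAs Snora73a and Snora73b, measured 216 and 294 TPM at 0 h and 101 and 142 TPM at 24 h in wild-type cells. In DKO cells it measured 254 and 224 TPM at 0 h and 177 and 122 TPM at 24 h, again without overlap. Of all tested genes, 31.6% in wild-type and 28.4% in DKO cells were lower at 24 h without overlap. Its log2 fold change in deposited TPM was −1.07 ± 0.21 (adjusted p = 0.00376) in wild-type and −0.70 ± 0.21 (adjusted p = 0.0332) in DKO cells. The wild-type call held without any 1 library. The DKO call was lost without either DKO library at 0 h or without DKO replicate 2 at 24 h, and the weakest value was −0.43. Spike-in normalized changes were −1.44 ± 0.36 (adjusted p = 0.0158) and −1.27 ± 0.36 (adjusted p = 0.0201). Snhg3 lies for 5592 bp within Rcc1 on the same strand and crosses the lincRNA Gm17300 on the opposite strand, and reads of such overlaps could have been counted for either gene. Rcc1 itself was at −1.37 (adjusted p = 1.09e-05) in wild-type and −1.12 (adjusted p = 2.81e-05) in DKO cells at 24 h in deposited TPM, and its part in the values of Snhg3 was not tested.

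Snhg12, the host of Snora16a, Snora44, Snora61 and Snord99, was 84.6 and 99.5 TPM at 0 h and 56.5 and 69.7 TPM at 24 h in wild-type cells. In DKO cells it was 85.6 and 87.4 TPM at 0 h and 67.8 and 67.2 TPM at 24 h. The log2 fold change in deposited TPM was −0.54 ± 0.11 (adjusted p = 0.00462) in wild-type cells, called without any 1 library, and −0.35 ± 0.11 (adjusted p = 0.0402) in DKO cells, called in 4 of the 14 fits with 1 library left out.

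Snhg8, the host of Snora24, was 81.3 and 93.1 TPM at 0 h and 58.8 and 68.9 TPM at 24 h in wild-type cells. In DKO cells it was 80.1 and 79.7 TPM at 0 h and 53.0 and 54.9 TPM at 24 h. The log2 fold change in deposited TPM was −0.44 ± 0.11 (adjusted p = 0.0149) in wild-type cells and −0.56 ± 0.11 (adjusted p = 0.00597) in DKO cells. The DKO call held without any 1 library, and the wild-type call was lost without wild-type replicate 2 at 0 h or replicate 1 at 24 h.

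Zfas1 and Snhg6 in both genotypes, and Epb41l4aos in wild-type cells, were not lower at 24 h in deposited TPM. In wild-type cells Epb41l4aos was 69.6 and 69.9 TPM at 0 h and 89.0 and 112 TPM at 24 h, a log2 fold change of 0.51 ± 0.17 in deposited TPM (adjusted p = 0.0462), where 15.8% of genes were called higher. This call stood in only 5 of the 14 fits with 1 library left out, and on the spike-in normalized scale the change was 0.15 ± 0.30 (adjusted p = 0.793), with a negative value, −0.20, without wild-type replicate 2 at 24 h. In DKO cells both spike-in normalized values of Epb41l4aos at 24 h, 138 and 82.9, were below both at 0 h, 172 and 166, as in 46.3% of all tested genes. The log2 fold change of −0.66 ± 0.30 was not called (adjusted p = 0.132). Zfas1 went from 114 and 151 TPM to 155 and 205 TPM in wild-type and from 126 and 112 TPM to 175 and 131 TPM in DKO cells, with log2 fold changes of 0.44 ± 0.17 (adjusted p = 0.0794) and 0.35 ± 0.17 (adjusted p = 0.165) that did not pass the test. Snhg6 went from 53.8 and 66.4 TPM to 68.0 and 80.2 TPM in wild-type cells, with a log2 difference of 0.30 ± 0.13 (adjusted p = 0.108), and by 0.31 ± 0.13 (adjusted p = 0.108) in DKO cells. With the replicate numbers as a block within each genotype, which pairs the libraries that were processed in parallel, Snhg6, Zfas1 and Epb41l4aos were all called higher in deposited TPM in wild-type cells at 24 h, beside 19.3% of all genes, and Snhg6 also in DKO cells, beside 15.3%. On the spike-in normalized scale the values of Snhg6 were −0.07 in wild-type and −0.25 in DKO cells, so its direction depended on the scale.

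Gas5, Snhg1 and Snhg15 were called on neither scale at 24 h in either genotype. Gas5 was 278 and 324 TPM at 0 h and 246 and 296 TPM at 24 h in wild-type cells, with overlapping replicates and a log2 fold change of −0.15 ± 0.13. In DKO cells it was 265 and 290 TPM at 0 h and 237 and 256 TPM at 24 h, without overlap, as in 28.4% of all tested genes (−0.17 ± 0.13, adjusted p = 0.383). Spike-in normalized, both libraries at 24 h were below both at 0 h in each genotype (−0.52 ± 0.28 in wild-type and −0.74 ± 0.28 in DKO cells, not called). The same was true of 47.8% of all tested genes in wild-type and 46.3% in DKO cells. In deposited TPM in wild-type cells Snhg1 was at 0.01 ± 0.22 and Snhg15 at −0.27 ± 0.16. With the replicate block, spike-in normalized calls at 24 h rose from 2 to 4 in wild-type cells (Snhg3, Snhg5, Snhg8 and Snhg12) and from 4 to 7 in DKO cells, where Gas5, Snhg15 and Epb41l4aos joined the same 4. The share of all genes called lower rose with the block as well, to 25.7% in wild-type and 38.1% in DKO cells, with 4.48% and 1.95% called higher.

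**Figure D2:**
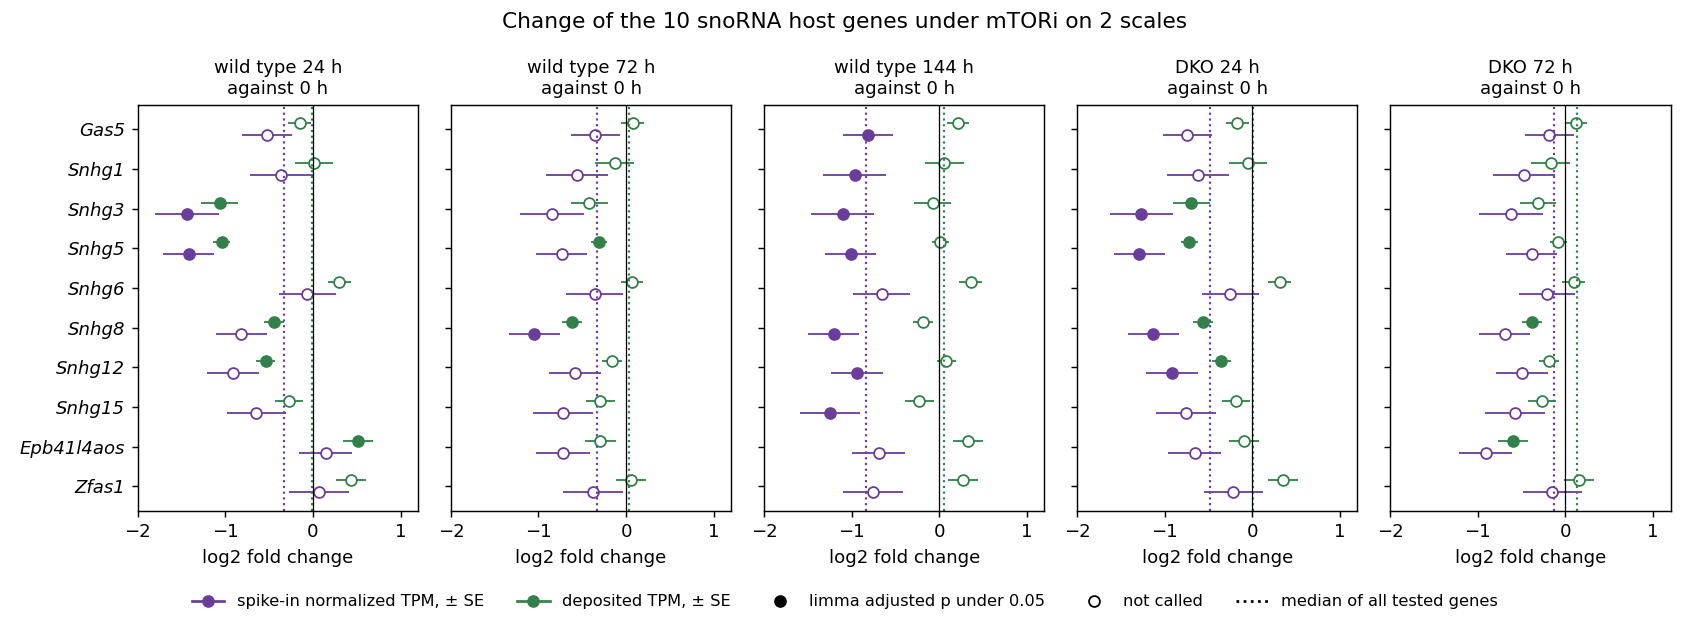
Log2 fold change against 0 h (x axes) of each host gene in the 5 comparisons of mTORi time points, as spike-in normalized TPM (purple) and deposited TPM (green), with bars of 1 SE, filled symbols for limma adjusted p under 0.05 and dotted lines at the median of all 18232 tested genes. Snhg3 and Snhg5 are filled and below 0 on both scales at 24 h in both genotypes, and at 144 h the spike-in normalized values lie between −1.25 and −0.66 while the deposited ones lie between −0.23 and 0.36.

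Markers of another lineage moved with the 24 h samples. The primitive endoderm markers Gata4, Gata6, Sox17, Foxa2 and Dab2, all 5 of which were above 0 in every library, summed to 115 TPM at 24 h in wild-type cells, against 22.6 TPM at 0 h and 39.2 TPM in DKO cells at 24 h, and their part in the host changes was not tested. In bulk samples a change in the share of cells that make a transcript and a change per cell cannot be told apart.

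At 72 h the values of Snhg3, Snhg5 and Snhg12 in wild-type cells lay between those at 24 h and those at 0 h in deposited TPM. Snhg5 stood at 113 and 105 TPM and Snhg3 at 174 and 204 TPM. Snhg12 stood at 83.7 and 80.5 TPM. Of the 10 hosts, Snhg8 (−0.62 ± 0.11, adjusted p = 0.00405) and Snhg5 (−0.31 ± 0.10, adjusted p = 0.0411) were called lower than at 0 h, against 11.4% of all genes. The Snhg8 call held without any 1 library, and the Snhg5 call stood in 5 of the 14 fits with 1 library left out, with values from −0.42 to −0.20. Of the 4 hosts lower at 24 h, Snhg8 had a lower mean at 72 h, at 60.8 and 52.2 TPM, than at 24 h (a difference of −0.17 ± 0.11). On the spike-in normalized scale all 10 hosts had values below 0, as had 74.3% of all genes, and Snhg8 alone was called lower (−1.05 ± 0.29, adjusted p = 0.0322), where 7.60% of genes were called lower and 0.697% higher. That call was lost without any 1 of the 6 wild-type libraries at 0, 72 or 144 h. With the replicate block Snhg3, Snhg5, Snhg15 and Epb41l4aos joined Snhg8, and the share of all genes called lower rose to 25.4%, with 2.85% higher.

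At 144 h of mTORi the 2 scales gave different calls. In deposited TPM 0 of 10 hosts were called by limma, with 1 at an unadjusted p under 0.05, against 11.7% of genes called lower and 15.6% higher. Snhg5 was 142 and 132 TPM and Snhg3 237 and 242 TPM, between the 2 values at 0 h in both cases. With the replicate block Snhg6 was called higher in deposited TPM, beside 19.9% of genes. With spike-in normalized values 7 of 10 were called lower and 0 higher, against 50.5% and 0.461% of all genes. The largest falls were those of Snhg15 (−1.25 ± 0.34, adjusted p = 0.00659), which went from 214 and 257 to 103 and 93.5, and Snhg8 (−1.20 ± 0.29, adjusted p = 0.00312), which went from 172 and 197 to 84.5 and 74.1. Gas5 went from 586 and 685 to 387 and 337 (−0.81 ± 0.28, adjusted p = 0.0237). The median of the 10 hosts was −0.95, beside −0.83 over all tested genes. Snhg6, Zfas1 and Epb41l4aos were the 3 hosts not called, with values of −0.66, −0.76 and −0.69, and with the replicate block all 10 were called, beside 66.3% of all genes lower and 1.05% higher. Snhg8 kept its call without any 1 library. It was the only host called without wild-type replicate 2 at 0 h or without replicate 2 at 144 h, and Gas5, Snhg1 and Snhg3 also lost their calls without replicate 1 at 144 h.

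**Figure D3:**
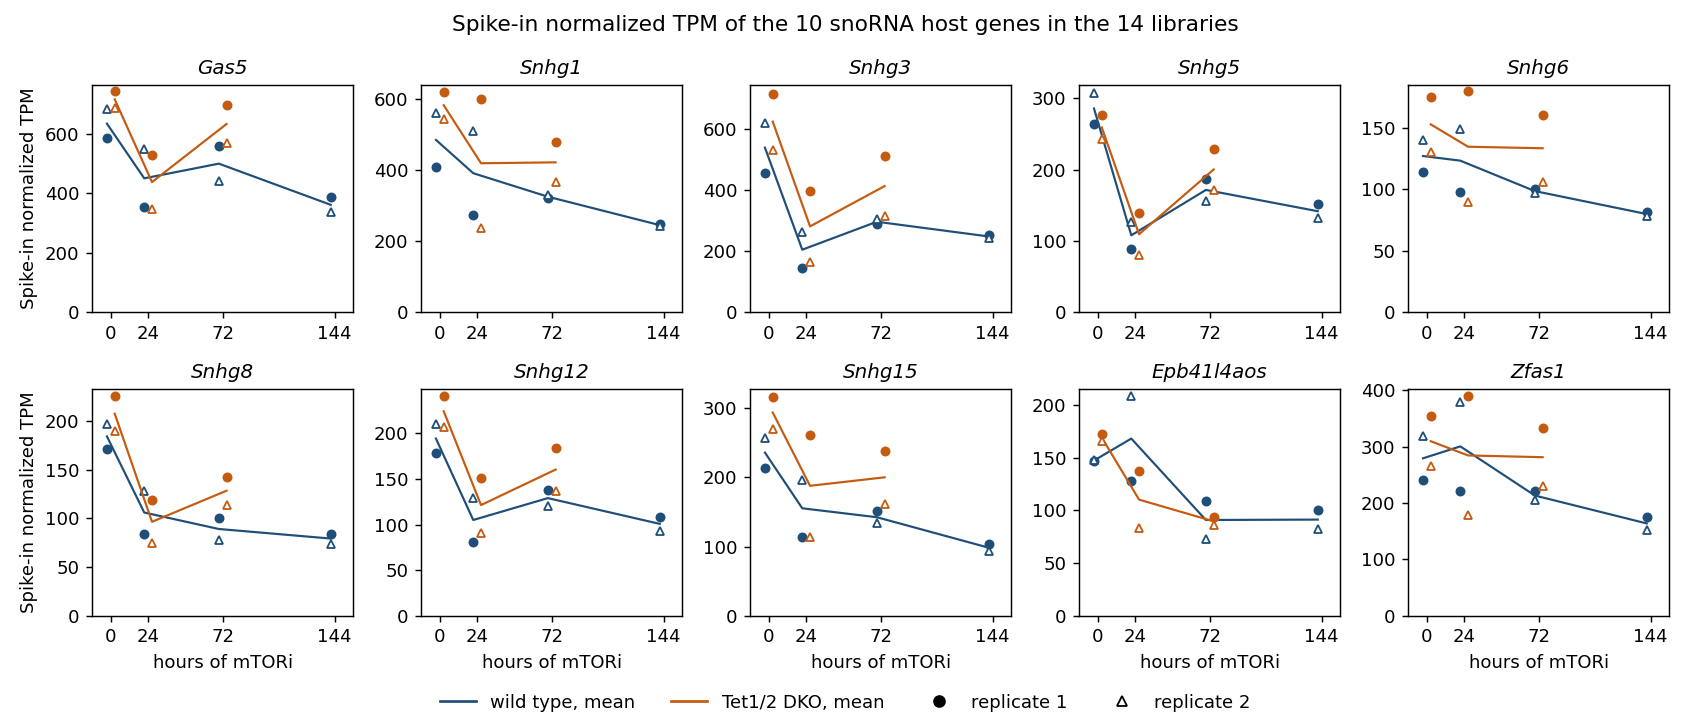
Spike-in normalized TPM of each host gene (y axes, from 0) against hours of mTORi (x axes), in wild-type (blue) and Tet1/2 DKO cells (orange), with 1 symbol per library and lines through the means of 2. Both wild-type libraries at 144 h lie below both at 0 h for all 10 hosts, as they do for 82.1% of all tested genes, and the 2 DKO libraries at 24 h, whose factors were 2.24 and 1.36, lie far apart.

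The later time points can also be set against 24 h. These differences use the same 24 h libraries in which the hosts stood out, so they are given as a description with no test. In deposited TPM the log2 difference of Snhg5 between 24 and 72 h was 0.73 ± 0.10 (SE) in wild-type and 0.64 ± 0.10 in DKO cells. Between 24 and 144 h in wild-type cells it was 1.06 ± 0.10 for Snhg5, 0.99 ± 0.21 for Snhg3 and 0.62 ± 0.11 for Snhg12. Epb41l4aos went the other way between 24 and 72 h in wild-type cells, from 89.0 and 112 to 66.1 and 48.7 TPM (−0.81 ± 0.17). The spike-in normalized differences of Snhg5 and Snhg3 between 24 and 144 h in wild-type cells were smaller, at 0.41 ± 0.29 and 0.34 ± 0.36.

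In DKO cells at 72 h, Snhg8 (−0.38 ± 0.11, adjusted p = 0.0331) and Epb41l4aos (−0.60 ± 0.17, adjusted p = 0.0291) were called lower in deposited TPM, where 9.06% of genes were. Epb41l4aos measured 61.2 and 69.9 TPM at 0 h and 36.9 and 49.6 TPM at 72 h. Both calls were lost without either DKO library at 0 h or without replicate 1 at 72 h. On the spike-in normalized scale 0 of 10 hosts were called by limma, with 2 at an unadjusted p under 0.05, against 2.95% of all genes called lower and 0.713% higher. With the replicate block Snhg8 and Epb41l4aos were called there as well, beside 13.2% of genes lower and 5.34% higher.

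No host was called as different between the genotypes by limma, on either scale and at any of 0, 24 and 72 h. Before treatment the spike-in normalized differences of the hosts, DKO minus wild type, ran from −0.14 to 0.32, beside 0.0274% of genes called higher and 0.0165% lower. After 24 h of mTORi they ran from −0.61 to 0.39, beside 0.0110% of genes higher and 0.0329% lower. After 72 h the range was 0.01 to 0.52, beside 0.302% and 0.0274%, and at each time 0 hosts had an unadjusted p under 0.05. In deposited TPM 1 host had an unadjusted p under 0.05 at each time, beside 2530, 2699 and 3871 of the 18232 genes. The share of genes called higher in deposited TPM was 0.422% before treatment, 0.581% after 24 h and 3.17% after 72 h, and the share called lower was 0.176%, 0.790% and 0.845%. The host at 0 h was Snhg5, which measured 98.1 and 102 TPM in DKO and 125 and 146 TPM in wild-type cells, without overlap, as in 16.6% of all tested genes (−0.43 ± 0.10, adjusted p = 0.0857). At 24 h it was Epb41l4aos, with 61.5 and 61.1 TPM in DKO and 89.0 and 112 TPM in wild-type cells (−0.70 ± 0.17, adjusted p = 0.0839), and at 72 h again Epb41l4aos (−0.40 ± 0.17, adjusted p = 0.219).

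The difference between the genotypes in the response to mTORi was called by limma for 0 hosts at either time. It was called for 0.00548% of genes (lower, 24 h, spike-in normalized) and otherwise for 0%. In deposited TPM 2 hosts had an unadjusted p under 0.05 for this difference at 24 h, Snhg5 and Epb41l4aos, and 0 had one at 72 h, and with spike-in normalized values 0 had one at either time. The response of Epb41l4aos at 24 h differed by −0.81 ± 0.43 spike-in normalized and by −0.61 ± 0.25 in deposited TPM.

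The snoRNA entries within the hosts could be followed in part. Of the 34, 28 had a mean under 1 TPM, and 32 span under 200 bp, so their values are uncertain. The 6 with a mean of at least 1 TPM were Snora73a (365 TPM) and Snora73b (167 TPM) in Snhg3, Gm23639 (26.1 TPM) in Epb41l4aos, Snord87 (17.0 TPM) in Snhg6, Snord22 (9.92 TPM) in Snhg1 and Gm22357 (3.72 TPM) in Gas5. Sequence motifs separated the hosted entries into 20 with box C and box D letters (TGATGA and CTGA), 8 with ACA at 3 bases from the end, and 6 with none of these. Of 1507 snoRNA entries in the annotation 20.2% and 18% fell in the first 2 classes, 27.9% held ACA elsewhere in the last 8 bases, where 0 hosted entries fell, and 33.8% held none. An entry of each of the first 2 classes is shown: Snord87, in Snhg6, and Snora73a, the most abundant, in Snhg3. Capitals mark the motifs.
Snord87, chr1:9942463-9942549, minus strand: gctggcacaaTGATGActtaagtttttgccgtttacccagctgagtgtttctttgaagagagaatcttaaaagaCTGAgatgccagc
Snora73a, chr4:132352775-132352979, minus strand: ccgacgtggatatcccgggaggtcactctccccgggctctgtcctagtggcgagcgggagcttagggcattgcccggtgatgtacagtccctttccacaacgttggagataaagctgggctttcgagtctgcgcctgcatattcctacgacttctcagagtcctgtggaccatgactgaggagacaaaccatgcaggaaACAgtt

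The snoRNA entry in Epb41l4aos was called lower at 24 h in wild-type cells, and the host was not. Gm23639 measured 34.9 and 46.9 TPM at 0 h and 16.0 and 14.4 TPM at 24 h in wild-type cells, a log2 fold change of −1.36 ± 0.33 in deposited TPM (adjusted p = 0.0104) and of −1.75 ± 0.44 on the spike-in normalized scale (adjusted p = 0.0149), whereas its host Epb41l4aos was at 0.51 and 0.15. In DKO cells Gm23639 was at −0.30 ± 0.33 (adjusted p = 0.552) in deposited TPM. Snord87 measured 17.1 and 20.2 TPM at 0 h and 8.24 and 12.7 TPM at 24 h in wild-type cells. These values did not overlap, as in 31.6% of all tested genes, and did not pass the test (−0.80 ± 0.29 in deposited TPM, adjusted p = 0.0595), beside 0.30 for its host Snhg6. Both were below 0 on the spike-in normalized scale, at −1.18 and −0.07. In Snhg3 the host fell by 1.07 on the log2 scale in deposited TPM while Snora73a was at −0.29 ± 0.55 (adjusted p = 0.731) and Snora73b at −0.58 ± 0.26 (adjusted p = 0.119). In DKO cells at 24 h Snora73a was at 0.87 ± 0.55, Snora73b at 0.012 ± 0.26 and Snord87 at −0.62 ± 0.29, and none was called. Snord22, in Snhg1, was at −0.61 ± 0.67 in wild-type and 1.99 ± 0.67 (adjusted p = 0.0539) in DKO cells at 24 h. Gm22357, in Gas5, was at −1.41 ± 0.91 and −0.09 ± 0.91, and neither entry was called in deposited TPM. The difference between a host and its snoRNA entry was not tested.

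**Figure D4:**
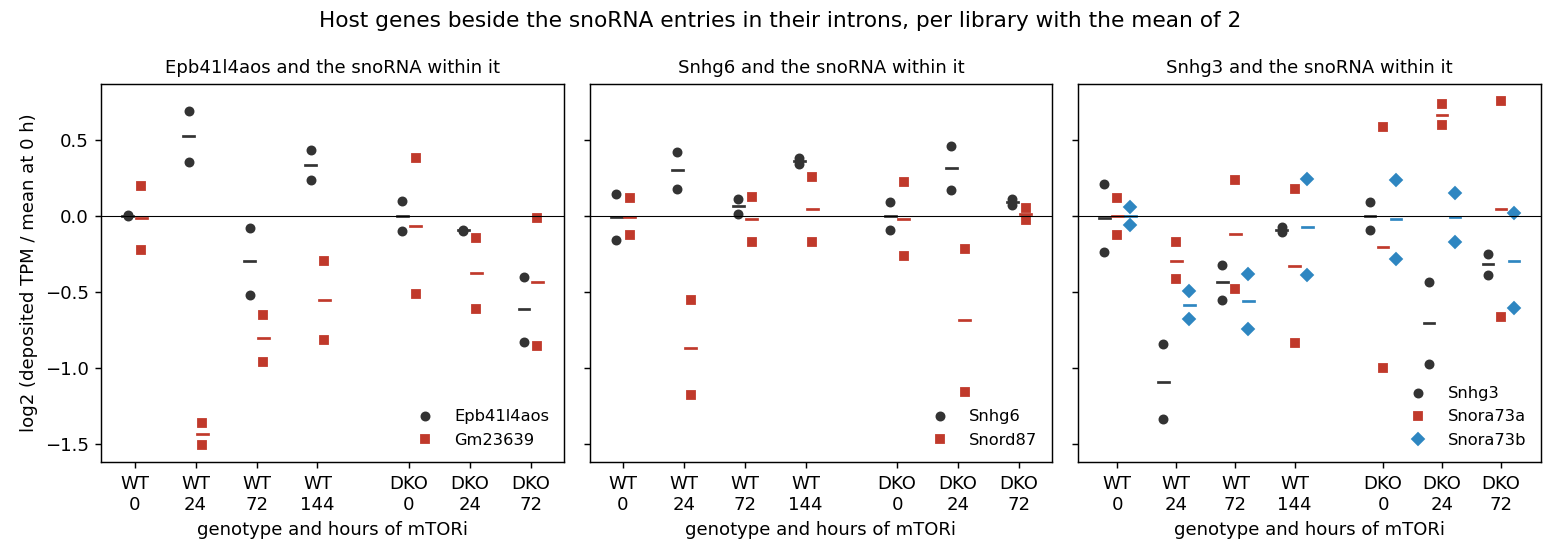
Log2 ratio of deposited TPM to the mean at 0 h of the same genotype (y axis) in each library of the 7 groups (x axis), for 3 hosts (black) and the snoRNA entries in their introns (red and blue), with short lines at the mean of 2. At 24 h in wild-type cells both libraries of Gm23639 lie below 0 and both of its host Epb41l4aos above 0.

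Related genes were described by lists, with calls from the fits without a replicate block. Of 12 other noncoding snoRNA hosts, 9 were tested, and at 24 h in wild-type cells Dancr (−1.02, adjusted p = 0.000539) and Snhg4 (−0.90, adjusted p = 0.0058) were called lower in deposited TPM and 0 higher, beside 14.1% and 15.8% of all genes. Dancr was also called lower in DKO cells at 24 h (−0.53, adjusted p = 0.0187), where Snhg20 was called higher (0.78, adjusted p = 0.0231), beside 13.3% of all genes lower and 11.6% higher. Snhg9 was called lower in deposited TPM at the later times, with −0.82 (adjusted p = 0.00421) at 72 h and −0.92 (adjusted p = 0.00213) at 144 h in wild-type cells, and was the host with the largest spike-in normalized fall at 144 h (−1.92, adjusted p = 0.000353), before Snhg11 (−1.75, adjusted p = 0.0124). Rian, an imprinted host of many box C/D snoRNAs, was called higher in deposited TPM at 72 h (1.25, adjusted p = 0.00385) and 144 h (1.40, adjusted p = 0.00199) in wild-type cells, beside 12.6% and 15.6% of all genes. Its spike-in normalized values, 0.82 and 0.37, were not called without the block.

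The 62 tested protein-coding genes with a Snord or Snora gene inside them were also described as a list. In deposited TPM at 24 h in wild-type cells 5 were called lower and 17 higher, with a median of 0.14 beside −0.01 over all genes, and spike-in normalized 3 lower and 0 higher, with a median of −0.23 beside −0.33. In DKO cells at 24 h 7 were called lower and 7 higher in deposited TPM, and 8 lower and 0 higher spike-in normalized. The 85 tested cytosolic ribosomal protein genes, the classical TOP mRNAs, had 5 lower and 21 higher in wild-type cells at 24 h in deposited TPM, with a median of 0.22, and 5 lower and 0 higher spike-in normalized, with a median of −0.15. Of all genes 14.1% were called lower and 15.8% higher in deposited TPM, and 8.73% and 1.25% spike-in normalized. In DKO cells at 24 h the ribosomal protein genes had 8 lower and 4 higher in deposited TPM, beside 13.3% and 11.6% of all genes, and 12 lower and 0 higher spike-in normalized, beside 18.7% and 0.505%. Of 18 other protein-coding TOP transcripts 4 were called lower and 4 higher in deposited TPM in wild-type cells at 24 h, and 3 and 0 spike-in normalized. At 144 h on the spike-in normalized scale, 52 of the 85 ribosomal protein genes and 13 of the 18 other TOP transcripts were called lower and 0 higher, beside 50.5% of all genes lower. In deposited TPM the ribosomal protein genes had 5 lower and 18 higher at 144 h and the other TOP transcripts 2 lower and 4 higher, beside 11.7% and 15.6% of all genes. The largest spike-in normalized falls at 144 h were those of Vim (−3.48) and Eef1d (−1.87) among the other TOP transcripts, Rpl39l (−2.5) and Rpl10l (−2.27) among the ribosomal protein genes, and Rcc1 (−1.89) and Ipo7 (−1.61) among the protein-coding genes with a snoRNA inside. Rcc1 overlaps the member Snhg3 on the same strand and contains the same Snora73a and Snora73b.

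Transcripts of many genes whose proteins build snoRNPs were lower at 24 h. Of 18 tested core and assembly factors of box C/D and H/ACA particles, 10 were called lower and 0 higher in deposited TPM at 24 h in wild-type cells and 9 lower and 0 higher in DKO cells, with medians of −0.39 and −0.31, beside 14.1% and 13.3% of all genes called lower. The assembly factors Znhit3 (−0.84, adjusted p = 0.000285) and Ruvbl1 (−0.79, adjusted p = 0.00146) were among those called in wild-type cells. Of the same list, 2 were called lower at 144 h in deposited TPM, beside 11.7% of all genes, and all 18 on the spike-in normalized scale, beside 50.5%. Of the exon junction complex, the mark left by splicing that triggers NMD, 1 of 5 was called lower in deposited TPM at 24 h in wild-type cells, namely Magoh (−0.54, adjusted p = 0.00552), and 1 higher. At 144 h Eif4a3 (−1.43) and Magoh (−1.35) had its largest spike-in normalized falls. Of 10 NMD factors 0 were called lower and 3 higher in deposited TPM at 24 h in wild-type cells, beside 14.1% and 15.8% of all genes, and 0 in either direction spike-in normalized, with a median of −0.28. At 144 h 0 were called lower and 2 higher in deposited TPM, beside 11.7% and 15.6% of all genes. In the same comparison 9 of 10 were called lower on the spike-in normalized scale, beside 50.5% of all genes, among them Upf3a (−1.25, adjusted p = 0.00207) and Smg9 (−1.24, adjusted p = 0.00524), which were both at −0.25 and not called in deposited TPM.

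Fabp5, Gm11457, Rest and Fbxl19 were among the genes whose deposited TPM over the 14 libraries most resembled the mean profile of the 10 hosts, out of 8588 that averaged 10 TPM or more and spanned 200 bp or more. Their likeness is given as a description, since the libraries share time points and genotypes.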

How the data were processed

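Expression was measured in 14 libraries of E14 mouse ES cells, and groups and replicate numbers were taken from the sample labels. The authors trimmed reads, aligned them to mm10 and made gene-level TPM with GENCODE VM19; the labels list cutadapt 2.4, STAR 2.7.3a and StringTie 2.0. The deposited TPM were summed per gene identifier. They were multiplied by 1 factor per library, the median ratio of the study's spike-in normalized table to the deposited TPM over its listed genes with at least 1 TPM. No strand setting is given in the sources used here. log2(TPM + 1) of the 18232 genes that averaged 1 or more in spike-in normalized units was fitted with limma 3.58.1 (R 4.3.3) with a mean-variance trend and 1 mean per group, and p-values were adjusted by Benjamini-Hochberg over all genes. A fold change on this scale understates the change of low genes. Scripts were tested on simulated data. Replicate numbers paired libraries within a genotype: the study processed the time points of a replicate in parallel, and deviations from the group means correlated between same-numbered libraries at 0.222 to 0.341 within DKO and 0.0622 to 0.398 within wild type, with 5 of 6 wild-type pairs over 0.1. p-values rest on 1 estimate of the spread per gene, pooled over the replicates of all 7 groups and moderated over genes. All comparisons share this estimate, also those without a common library. All members are named; of each list, the called genes with the largest changes at 144 h in wild type (spike-in normalized) are named, and Dancr, Snhg4, Snhg20 and Rian were named after their values were seen. The members, lists and tests were chosen with earlier results of these data known. Alternatives were deposited TPM, centring, another pseudocount (0.1), no filter or a filter at 5 TPM, a replicate block, no trend, and leaving out each library. A gene that the rule on likeness names is not reported here.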

Additional observations from a re-analysis of the deposited data

Results flagged for a closer look

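Epb41l4aos at 24 h was singled out because the libraries of the genotypes lay on opposite sides of their 0 h means in deposited TPM. Both wild-type libraries at 24 h (89.0 and 112 TPM) were above the wild-type mean at 0 h (69.7 TPM), and both DKO libraries (61.5 and 61.1 TPM) were below the DKO mean at 0 h (65.5 TPM), though not clear of DKO replicate 1 at 0 h (61.2 TPM). The DKO change was not called, and ran from −0.19 to 0.0034 with 1 library left out. The difference of the responses, DKO minus wild type, was −0.61 ± 0.25 on the log2 scale, with an unadjusted limma p of 0.0320 and an adjusted p of 0.999 over all genes, so it did not pass the test. On the spike-in normalized scale 1 of the 2 wild-type libraries at 24 h was above the mean at 0 h.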

How the results depend on the processing

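In deposited TPM 5 hosts were called at 24 h (4 lower, and Epb41l4aos higher), 2 lower at 72 h and 0 at 144 h in wild-type cells. In DKO cells 2 were called lower at 72 h. Of all genes, 14.1%, 11.4% and 11.7% were called lower at these times in wild-type cells, and 9.06% in DKO cells at 72 h. With spike-in normalized values centred on the library median the counts of hosts called were 4, 3, 1 and 4, in the same order. A replicate block within the genotypes gave 4 at 24 h, 5 at 72 h and 10 at 144 h in wild-type cells, and 7 at 24 h and 2 at 72 h in DKO cells. Beside these, 25.7%, 25.4%, 66.3%, 38.1% and 13.2% of all genes were called lower, in the same order. In deposited TPM the block gave 1 at 144 h in wild-type cells, which was higher, beside 19.9% of genes. The replicate block over all libraries changed none of the 50 calls of a host against 0 h. Between the genotypes, however, deviations of same-numbered libraries correlated at −0.501 to 0.116, with 10 of 12 pairs of groups below 0. A replicate term shared by both genotypes could therefore take up little, and the unchanged calls are no check of stability. Without a filter on low values the counts were 1, 0 and 2 in wild-type cells at 24, 72 and 144 h and 2 in DKO cells at 24 h, where more genes were tested, and without the mean-variance trend 0 at 72 h in wild-type cells. With 1 library left out, where limma assumes that a lone library varies like the other groups, the counts ranged from 0 to 4, 0 to 3 and 1 to 10 in wild-type cells at 24, 72 and 144 h, and from 0 to 8 and 0 to 1 in DKO cells at 24 and 72 h. In deposited TPM the ranges were 4 to 5, 1 to 2, 0 to 1, 2 to 4 and 0 to 2, in the same order. The counts for DKO against wild type and for the difference of the responses stayed at 0 in all settings run. The shares of all genes called are not given here for centring, no filter, no trend or a library left out. The host counts under those settings therefore cannot be set against all genes.

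The median of the 10 hosts went to −0.23 at 72 h and 0.071 at 144 h in wild-type cells in deposited TPM, and to −0.36 and −0.12 with centring. For DKO against wild type it went to −0.088 at 0 h and −0.045 at 72 h in deposited TPM, and to −0.11 and −0.14 with centring. Deposited and spike-in normalized TPM differ by construction only in the factors; the cause of the other changes was not tested.

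Single hosts changed sign in deposited TPM in 17 of 50 comparisons with 0 h and with centring in 7. In wild-type cells at 24 h these were Snhg1 (0.011) and Snhg6 (0.30, centred 0.20), and at 72 h Gas5 (0.077), Snhg6 (0.067) and Zfas1 (0.052). At 144 h they were Gas5 (0.22, centred 0.024), Snhg1 (0.061), Snhg5 (0.015), Snhg6 (0.36, centred 0.18), Snhg12 (0.082), Epb41l4aos (0.33, centred 0.14) and Zfas1 (0.27, centred 0.079). In DKO cells they were Snhg6 (0.31, centred 0.21) and Zfas1 (0.35, centred 0.24) at 24 h, and Gas5 (0.12), Snhg6 (0.093) and Zfas1 (0.16) at 72 h. With 1 library left out, signs changed within the ranges of Snhg1 (−0.81 to 0.090), Snhg6 (−0.37 to 0.24), Epb41l4aos (−0.20 to 0.50) and Zfas1 (−0.32 to 0.45) at 24 h in wild-type cells, of Snhg1 (−1.28 to 0.046), Snhg6 (−0.75 to 0.25) and Zfas1 (−0.78 to 0.35) at 24 h in DKO cells, and of Snhg6 (−0.50 to 0.086) and Zfas1 (−0.41 to 0.12) at 72 h. Of these hosts, Gas5, Snhg1, Snhg5 and Snhg12 at 144 h were called on the spike-in normalized scale with all libraries and no block. The fits in deposited TPM with a library left out or with a block were added after the data were seen.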
